A study of Mus musculus with 2 samples.

Results

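The genes described here are 10 transcription factors of the mesenchyme that surrounds the developing ureter: Sox9, Tshz2, Tshz3, Tcf21, Gata2, Gata6, Nr2f1, Nr2f2, Meis1 and Twist1. They were chosen by name, as all non-control probes that carry these symbols in the scanner files, which gave 12 probes; 8 genes had 1 probe each, and Tshz2 and Nr2f1 had 2 each. All 10 were among the 21097 genes tested, of 31870 gene names on the array. Ureters were dissected from male NMRI mouse embryos at stage E13.5. Tbx2-GOF embryos were Tbx18(cre/+);Hprt(Tbx2/Y) and control embryos Tbx18(+/+);Hprt(Tbx2/Y), so that the Tbx2 allele at the Hprt locus was shared by both genotypes and the Tbx18 allele carrying cre was not. GOF stands for gain of function of Tbx2, a T-box repressor, in cells in which Tbx18 drove cre; Tbx2-GOF embryos also had 1 Tbx18 allele occupied by cre, which the controls did not. There were 2 two-colour arrays with swapped dyes, each with 1 Tbx2-GOF and 1 control extract, and Tbx2-GOF was red (AlexaFluor647) on array 1 and green (AlexaFluor555) on array 2. The sources used here do not give the number of embryos per extract, nor whether the arrays used separate embryos, so p-values and SDs measure array-to-array spread only, and that spread may be technical.

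The mesenchyme around the ureteric epithelium is patterned by signals from that epithelium and from its outer layer, and its inner part later becomes smooth muscle. Transcription factors of several families mark or steer this tissue: zinc-finger proteins of the teashirt and GATA families, orphan nuclear receptors of the COUP-TF group, basic helix-loop-helix proteins, a SOX protein and a homeodomain protein of the TALE class. Most of them are also used in other tissues near the ureter, so a dissected ureter can hold transcripts of the same gene from several cell types. In bulk RNA, fewer cells of a type and less RNA per cell cannot be told apart.

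None of the 10 transcription factors differed between Tbx2-GOF and control ureters by limma's moderated test at an adjusted p under 0.05. Twist1, a basic helix-loop-helix factor of mesenchymal cells, was farthest down, at a mean log2 ratio of -0.63 ± 0.36 (Tbx2-GOF over control, SD, n = 2 arrays; 1.55-fold lower). Nr2f1, an orphan nuclear receptor also called COUP-TFI, was farthest up, at 0.26 ± 0.26 (1.20-fold higher). Of the 10 genes, 5 were below 0 on both arrays (Twist1, Tshz3, Meis1, Gata6 and Nr2f2), 1 was above 0 on both (Nr2f1) and 4 had opposite signs on the 2 arrays (Tcf21, Gata2, Tshz2 and Sox9).

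The counts are read against all genes tested. By limma with Benjamini-Hochberg adjustment, 0 of the 10 passed, where 0.640% of the 21097 genes did (0.360% higher and 0.280% lower in Tbx2-GOF). Fitted by probe, 0 of 12 passed, where 0.419% of 26471 probes did. At an unadjusted p under 0.05 there was 1 of the 10, Twist1, on the lower side, where 9.34% of all genes had such a p and 3.71% had it on the lower side. Over all genes, 25.1% were below 0 on both arrays, 26.1% above 0 on both and 48.8% of opposite sign. The mean was at or below -0.3 in 2 of the 10 (Twist1 and Tshz3), where 4.82% of all genes were, and under 0.3 in size in 8 of the 10, where 88.4% were. None was 1.5-fold or more lower on both arrays (0.545% of all genes) or 1.5-fold or more higher on both (0.825%). The median of the 10 means was -0.13, with -0.34 on array 1 and -0.08 on array 2, against a median of -0.00 over all genes. No test was run on this list, since its genes were chosen.

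**Figure D1:**
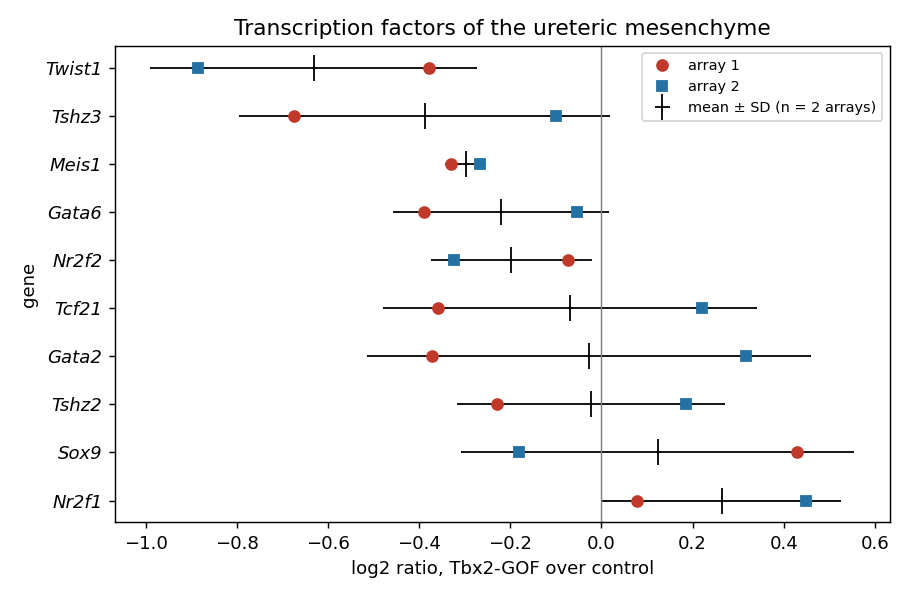
Log2 ratios of Tbx2-GOF over control (x axis) for each of the 10 genes (y axis), with array 1 as circles, array 2 as squares, and the mean of the 2 arrays with its SD as a tick with a bar. Twist1 lies at -0.38 and -0.89 and Nr2f1 at 0.08 and 0.45, while Sox9, Gata2, Tcf21 and Tshz2 have 1 array on each side of 0.

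TBX2 binds T-box elements in DNA, and the promoters of the genes with the same sign on both arrays bear on whether such letters stand near their starts. RefSeq promoter sequences of GRCm38.p6 matched 8 of the 10 genes with 10 windows. Sox9 and Gata6 had no window in the sequences used, so Gata6, below 0 on both arrays, was not searched. The 250 bases before each start were searched on both strands. The T-box element AGGTGTGA was in 0 of the 10 windows and in 1.12% of 32851 windows of all genes. Its core GGTGTG, which lies within that element, was in 1 of the 10 windows, that of Meis1, and in 16.3% of all windows. A match is a description of letters, and no match says only that these letters are not in this window. Shown are Twist1, the gene farthest down (chr12:33957421-33957670, plus strand), and Meis1, whose arrays were closest as reported (chr11:19018970-19019219, minus strand). Also shown is the first listed window of Nr2f1, the 1 gene above 0 on both arrays (chr13:78198874-78199123, minus strand). The capitals mark the T-box core.
Twist1: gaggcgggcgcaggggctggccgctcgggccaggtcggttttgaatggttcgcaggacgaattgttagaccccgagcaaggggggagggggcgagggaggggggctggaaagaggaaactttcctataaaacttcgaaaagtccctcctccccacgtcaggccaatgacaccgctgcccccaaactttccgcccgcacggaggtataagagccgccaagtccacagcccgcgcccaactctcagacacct
Meis1: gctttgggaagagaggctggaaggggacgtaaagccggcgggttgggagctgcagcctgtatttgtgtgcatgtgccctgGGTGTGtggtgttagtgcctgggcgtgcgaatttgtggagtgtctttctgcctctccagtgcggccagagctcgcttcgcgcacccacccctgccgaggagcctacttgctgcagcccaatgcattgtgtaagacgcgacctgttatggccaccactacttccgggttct
Nr2f1: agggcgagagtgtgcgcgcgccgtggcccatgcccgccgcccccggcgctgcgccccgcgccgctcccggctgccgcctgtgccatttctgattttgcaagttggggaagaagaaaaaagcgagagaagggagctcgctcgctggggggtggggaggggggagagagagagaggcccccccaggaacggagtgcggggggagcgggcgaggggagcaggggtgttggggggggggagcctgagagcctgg

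The values below are normalized log2 signals of each genotype's channel and their difference, the log2 ratio. Each probe detects only its own transcript region, so signals are not compared between genes. Whether the values of the genotypes overlap is description only. The share of all genes without overlap was not computed, and the test uses the ratio within each array. All 12 probes were well above background in both channels on both arrays. Probe positions are on mm9; exon and UTR annotations of these positions were not used here.

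Twist1 is a basic helix-loop-helix factor that dimerizes with E proteins and is known for keeping mesenchymal cells undifferentiated. Its probe (chr12:34644411-34644470) gave 13.06 and 12.79 in Tbx2-GOF ureters on arrays 1 and 2, against 13.44 and 13.67 in control ureters. Both Tbx2-GOF values lay below both control values. The log2 ratio was -0.38 on array 1 and -0.89 on array 2, with a 95% interval from limma of -1.003 to -0.26. The unadjusted p was 0.0048 and the adjusted p 0.178, short of the threshold; over 12 processing settings the adjusted p ran from 0.0887 to 0.684. Of all genes tested, 0.981% had a lower mean, and the size of the difference was exceeded by 2.74%.

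Tcf21, another basic helix-loop-helix gene and a marker of renal stroma and podocytes, had a different pattern (chr10:22537563-22537622). Its signal was 15.63 and 15.78 in Tbx2-GOF ureters, against 15.99 and 15.56 in control ureters. The Tbx2-GOF values lay between those of the controls. Tcf21 had a log2 ratio of -0.36 on array 1 and 0.22 on array 2, with a mean of -0.07 ± 0.41 (limma adjusted p = 0.9998, 95% interval -0.46 to 0.32). On array 1 the ratios of Tcf21 and Twist1 differed by 0.02 (Tcf21 minus Twist1), and on array 2 by 1.11. These differences depended on the processing. Under median centring in place of loess, Tcf21 was at -0.10 and -0.12 and Twist1 at -0.40 and -0.88. With 2 arrays the smallest p of an exact sign-flip test is 0.5, so differences between members are given with no test.

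The teashirt genes encode zinc-finger repressors; Tshz3 is required in mouse for the onset of smooth muscle differentiation in the proximal ureter. The Tshz3 probe (chr7:37557872-37557931) gave 13.19 and 13.08 in Tbx2-GOF ureters, against 13.86 and 13.18 in control ureters. Within each array Tbx2-GOF was the lower. Across the arrays the groups overlapped, with the control value of array 2 just below the Tbx2-GOF value of array 1. The control value of array 1 stood above the rest. Tshz3 had a log2 ratio of -0.68 on array 1 and -0.10 on array 2, and its mean of -0.39 ± 0.41, a 1.31-fold lower level, did not pass (limma unadjusted p = 0.0508, adjusted p = 0.539).

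Its relative Tshz2 had a probe (chr2:169713711-169713770) at 12.85 and 12.77 in Tbx2-GOF ureters, against 13.08 and 12.58 in control ureters. The second, dimmer Tshz2 probe (chr2:169711933-169711992) gave 10.78 and 10.83 in Tbx2-GOF ureters, against 10.96 and 10.47 in control ureters. For both probes the Tbx2-GOF values lay between the control values. The log2 ratios were -0.23 and 0.19 on arrays 1 and 2 for the brighter probe, with a mean of -0.02 ± 0.29, and -0.18 and 0.36 for the dimmer one, with a mean of 0.09 ± 0.39. The probes thus took the same sign on each array and opposite signs in their means, both within the spread of the arrays (limma adjusted p = 0.9998 for the gene, 95% interval -0.37 to 0.33). Tshz2 was above Tshz3 on both arrays, by 0.45 and 0.29 on the log2 ratio.

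The 2 GATA factors bind the same core DNA sequence. Gata2 acts in blood, neural and urogenital development, and Gata6 in endoderm, heart and smooth muscle. The Gata2 probe (chr6:88156362-88156421) gave 15.07 and 15.12 in Tbx2-GOF ureters, against 15.45 and 14.80 in control ureters. The control values lay on either side of the Tbx2-GOF values, and the log2 ratio was -0.37 on array 1 and 0.32 on array 2 (mean -0.03 ± 0.49, limma adjusted p = 0.9998, 95% interval -0.45 to 0.40). The SD of 0.49 was the largest of the 10 genes as reported. With median centring in place of loess the Gata2 ratios lay closer, at -0.19 and 0.10.

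The Gata6 probe (chromosome 18) gave 15.05 and 14.99 in Tbx2-GOF ureters, against 15.44 and 15.05 in control ureters. Within each array Tbx2-GOF was the lower. Across the arrays the groups overlapped, since the control value of array 2 lay between the Tbx2-GOF values. The control value of array 1 stood above the rest. Its log2 ratio was -0.39 on array 1 and -0.05 on array 2, with a mean of -0.22 ± 0.24 (limma adjusted p = 0.827, 95% interval -0.55 to 0.11). Gata2 and Gata6 differed by 0.02 on array 1 and by 0.37 on array 2 (Gata2 minus Gata6).

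Nr2f1 and Nr2f2 encode the closely related orphan nuclear receptors COUP-TFI and COUP-TFII, the second of which also marks venous endothelium. The brighter Nr2f1 probe (chr13:78328723-78328782) gave 16.14 and 16.10 in Tbx2-GOF ureters, against 16.06 and 15.65 in control ureters. Both Tbx2-GOF values lay above both control values. The log2 ratio was 0.08 on array 1 and 0.45 on array 2, with a mean of 0.26 ± 0.26 (limma unadjusted p = 0.11, adjusted p = 0.724, 95% interval -0.08 to 0.60).

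A second Nr2f1 probe (chr13:78328290-78328349) gave 15.81 and 15.74 in Tbx2-GOF ureters, against 15.65 and 15.25 in control ureters. It had the same order of values, with log2 ratios of 0.17 and 0.49 and a mean of 0.33 ± 0.23 (limma adjusted p = 0.622 over 26471 probes). Nr2f1 was thus read higher by both probes on both arrays without passing the test.

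The Nr2f2 probe (chr7:77496873-77496932) gave 14.45 and 14.18 in Tbx2-GOF ureters, against 14.52 and 14.51 in control ureters. Both Tbx2-GOF values lay below both control values, and here the control values nearly coincided. The log2 ratio was -0.07 on array 1 and -0.32 on array 2 (mean -0.20 ± 0.18, limma adjusted p = 0.857, 95% interval -0.52 to 0.12). Nr2f1 and Nr2f2 took opposite signs on both arrays: Nr2f1 minus Nr2f2 was 0.15 on array 1 and 0.77 on array 2, a mean of 0.46 ± 0.44. With median centring in place of loess, Nr2f2 was at 0.0006 on array 1, so the opposite signs there were not kept.

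Meis1 encodes a TALE homeodomain protein that pairs with other homeodomain proteins and marks the renal stroma. Its probe (chr11:18780695-18780754) gave 15.53 and 15.45 in Tbx2-GOF ureters, against 15.86 and 15.72 in control ureters. Both Tbx2-GOF values lay below both control values, and the 2 arrays were closer for Meis1 than for the other 9 genes. Meis1 had a log2 ratio of -0.33 on array 1 and -0.27 on array 2, a mean of -0.30 ± 0.04 or 1.23-fold lower. With median centring in place of loess its ratios were -0.09 and -0.59, so the closeness of the arrays depended on the processing. The test borrows spread from all genes, and the unadjusted p was 0.052 and the adjusted p 0.545 by limma.

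Sox9 encodes an HMG-box factor known as the master regulator of cartilage and needed in mouse ureteric mesenchyme for smooth muscle differentiation; it is also made at ureteric bud tips. Its probe (chr11:112648809-112648868) was printed as 10 spots on each array. The mean signal was 11.70 and 11.62 in Tbx2-GOF ureters, against 11.27 and 11.80 in control ureters. The Tbx2-GOF values lay between the control values. The log2 ratio was 0.43 on array 1 and -0.18 on array 2, a mean of 0.12 ± 0.43 (limma adjusted p = 0.9998, 95% interval -0.28 to 0.52).

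The spots of Sox9 show how much of this gap lies within an array. The 10 spots ran from 0.31 to 0.55 on array 1, with an SD of 0.08, and from -0.29 to -0.10 on array 2, with an SD of 0.08. The spots of the 2 arrays did not overlap, so the gap between the arrays was larger than the spread between spots. Across 316 kept probes with 10 spots, the median SD between spots was 0.06 on array 1 and 0.06 on array 2.

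**Figure D2:**
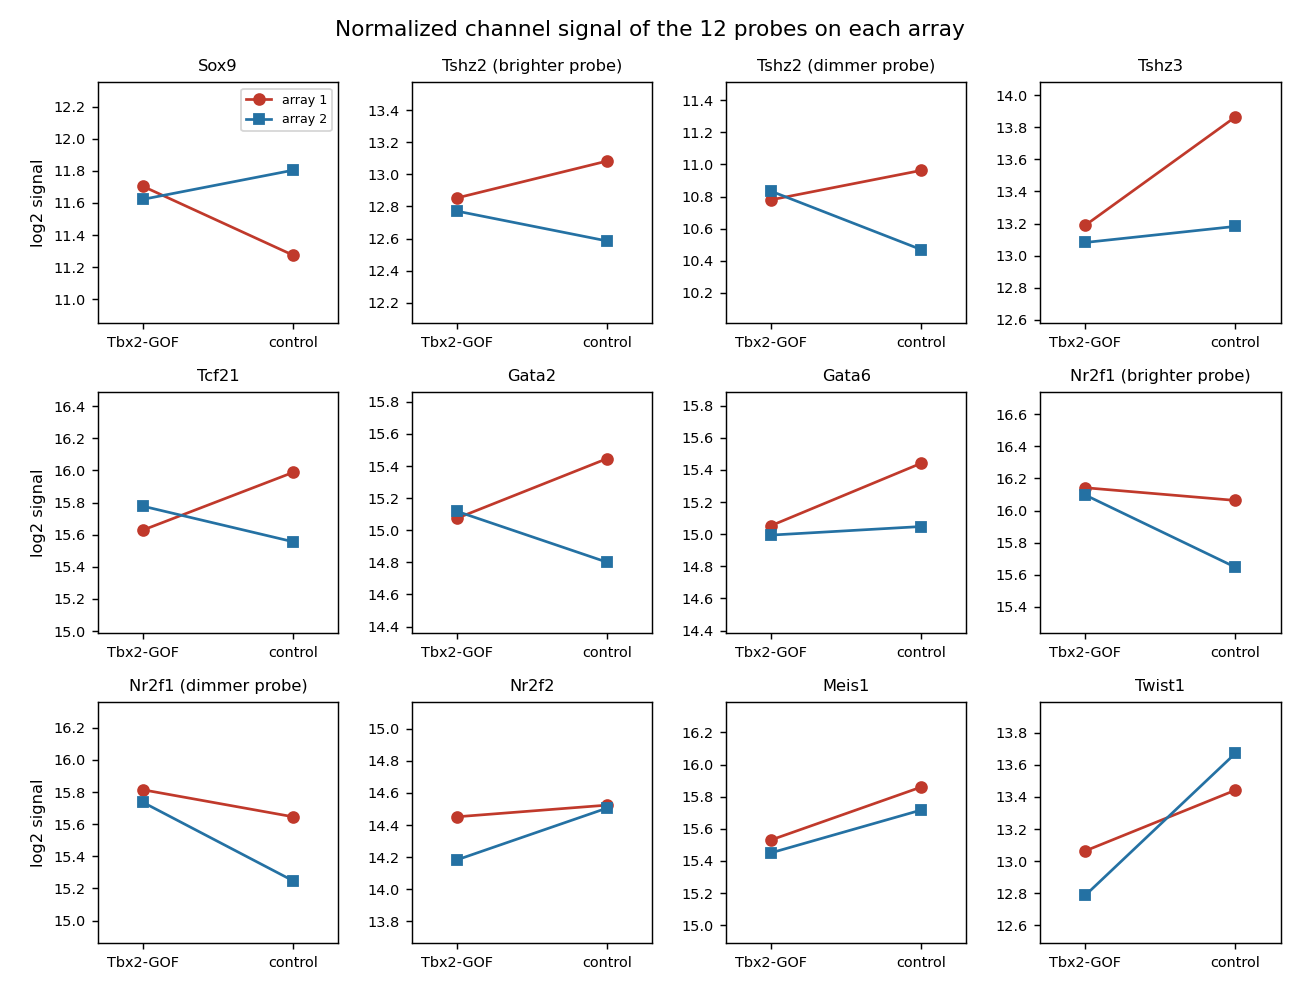
Normalized log2 signal (y axis) of the 12 probes in the Tbx2-GOF channel (left in each panel) and the control channel (right), joined within an array; circles are array 1 and squares array 2, and every panel spans the same 1.5 log2 units. For Gata2 the Tbx2-GOF points are at 15.07 and 15.12 and the control points at 15.45 and 14.80, while for Meis1 both lines run the same way.

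The 2 arrays differed more for these genes than for most, but genes of like signal were not compared. The probes that stood for the 10 genes were all brighter than the median kept probe (mean log2 signal of its channels 10.78). The median SD of the log2 ratio was 0.33 over the 10 genes, against 0.14 over all genes tested, and 9 of the 10 had an SD above that of the median gene. The wider channel was mostly the control: its SD over the 2 arrays was larger than that of Tbx2-GOF in 8 of the 10 genes, where the same held for 69.3% of all genes. The median channel SD of the 10 genes was 0.06 in Tbx2-GOF and 0.30 in control, against 0.07 in Tbx2-GOF and 0.13 in control over all genes tested. A wider control channel was thus common across the array. The exceptions were Nr2f2 and Twist1. Control extracts were green on array 1 and red on array 2, so the extract, the dye and the array cannot be told apart.

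The 95% intervals carry array-to-array spread only, so they set no limit on a difference between embryos that may have been missed. For 6 of the 10 genes the interval lay within 1.5-fold in either direction (0.58 on the log2 scale): Sox9, Tshz2, Tcf21, Gata2, Gata6 and Nr2f2. For the other 4 (Twist1, Tshz3, Meis1 and Nr2f1) it reached beyond, though only just for Meis1 (to -0.60) and Nr2f1 (to 0.60). The share of all genes with an interval within 1.5-fold was not computed. An interval of this kind rests on the spread shared across all genes. The median SD was 0.14 over all genes and 0.33 over the 10, so the intervals may be too narrow here.

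**Figure D3:**
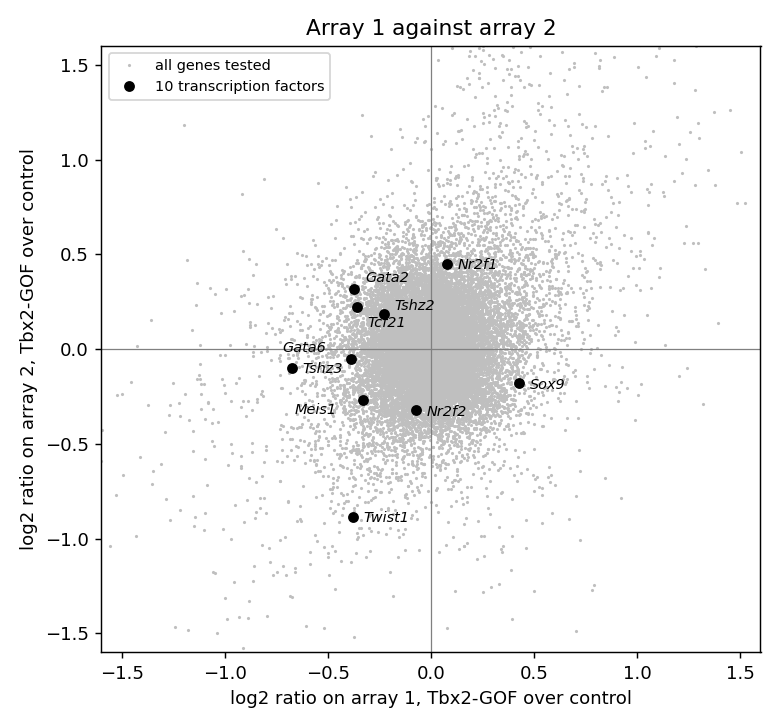
Log2 ratios of Tbx2-GOF over control on array 1 (x axis) and array 2 (y axis), with all 21097 genes tested as grey points and the 10 transcription factors as black points; 120 genes lie outside the axes. Twist1 is at -0.38 and -0.89, and Gata2, Tcf21 and Tshz2 lie in the quadrant that is below 0 on array 1 and above 0 on array 2.

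The signs of the means held across the processing. Over 12 settings that used both arrays, Twist1 ran from -0.65 to -0.61, Tshz3 from -0.41 to -0.38, Meis1 from -0.34 to -0.28 and Nr2f1 from 0.23 to 0.30. Tshz2 was the exception, at 0.034 with the mean of its probes. The signs on single arrays held less well. With median centring in place of loess, Tcf21 was below 0 on both arrays (-0.10 and -0.12). Nr2f2 was then at 0.0006 on array 1 and -0.44 on array 2. None of the 10 genes passed in any of the 12. Twist1 had an unadjusted p under 0.05 in 12 of the 12 settings, Tshz3 in 6 and Meis1 in 5. In the authors' deposited table Twist1 was at -0.40 and -0.91 and Nr2f1 at 0.10 and 0.42 on arrays 1 and 2, after conversion of its signed ratios to log2.

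**Figure D4:**
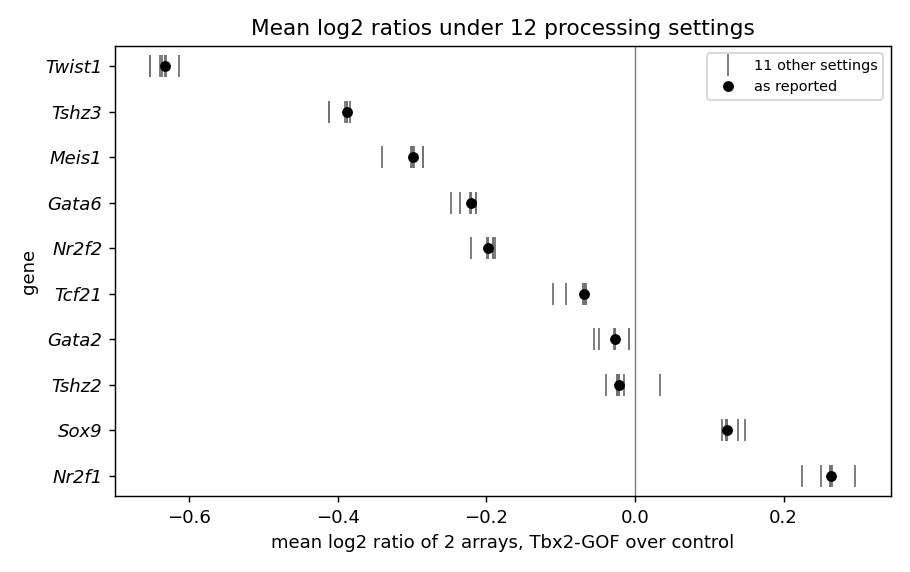
Mean log2 ratio of Tbx2-GOF over control (x axis) for the 10 genes (y axis) as reported (dots) and under 11 other processing settings (ticks). Twist1 is lowest and Nr2f1 highest in each setting, and 1 tick of Tshz2, at 0.034, lies on the other side of 0.

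Genes that work with these factors were read from lists. Of 13 close family relatives 0 passed limma's test (4 at an unadjusted p under 0.05), and their median was -0.01. Sox10, a SOX factor of neural crest glia, was highest at 0.89 ± 0.50 and Msc, a basic helix-loop-helix gene, lowest at -0.53 ± 0.89. Of 14 partners and inhibitors, among them E and ID proteins, 0 passed (2 at an unadjusted p under 0.05), with a median of 0.04. Tcf12, which encodes an E protein that pairs with TWIST1 and TCF21, was lowest at -0.38 ± 0.01 (limma adjusted p = 0.327). With the mean of its probes Tcf12 was at -0.15 (limma adjusted p = 0.964).

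Among 22 other regulators of ureteric and renal stroma 21 were tested and 1 fell, Foxd1, a marker of stromal progenitors, by 0.98 ± 0.30 on the log2 scale (limma adjusted p = 0.0471). Foxd1 lost this call in 5 of 11 other settings, with adjusted p from 0.0131 to 0.520 over the 11. Each of the 13 genes named here as risen or fallen lost its call in 3 to 6 of the other settings. Foxf2 was highest at 0.58 ± 0.73, and the list median was -0.14. Tbx18, which defines the ureteric mesenchyme and of which 1 allele carried cre, was at -0.45 ± 0.20 (adjusted p = 0.266), and Tbx2 itself at 0.30 ± 0.37 (adjusted p = 0.711). Whether the Tbx2 probe reads the Hprt allele was not settled here, so it checks nothing about the labels. All 9 defining ureter genes were well enough above background to be tested, with 1 fallen (Upk3a, a uroplakin, at -0.86) and Shh, the epithelial hedgehog ligand, highest at 0.31.

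Genes that act downstream of SOX9 and TSHZ3 were read next. Of 8 tested cartilage genes, classical SOX9 targets, 0 passed (2 at an unadjusted p under 0.05), with medians of 0.09 and 0.12 on arrays 1 and 2; Col2a1 was at 0.38 and Col9a1 at -0.45. Of 9 tested smooth muscle genes 1 rose, Synpo2, at 0.95 ± 0.23 (limma adjusted p = 0.0449), and the median was 0.03. Synpo2 lost this call in 6 of 11 other settings (adjusted p from 0.0131 to 0.501 over the 11), and with the mean of its probes it was at 0.44 with an adjusted p of 0.241. Actg2 was lowest at -0.41. Myocd, the smooth muscle coactivator, was not well above background on both arrays in either genotype and was not tested.

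Marker lists of other cell types were read as well, and their medians on arrays 1 and 2 are given beside the 10 genes. Skeletal muscle genes had medians of -1.78 and -0.89 on arrays 1 and 2, and 4 of 10 fell (Chrna1, Acta1, Myh8 and Tnnt3, from -1.66 to -0.97), with Ttn at -1.99. Their summed signal was 6679 and 17548 in Tbx2-GOF, against 28698 and 33436 in control. Sympathetic neuron genes were at 0.45 and 1.66, with Th risen among 8, and a summed signal of 108854 and 114927 in Tbx2-GOF, against 79899 and 40770 in control. Gata2, which sympathetic neurons also express, was at -0.37 and 0.32 on the same arrays. The medians were 0.54 and 0.90 for Schwann precursors (Fabp7 risen among 7), 0.32 and 0.33 for nephron progenitors (Six2 and Uncx risen among 7, Sall1 lowest at -0.46), 0.40 and 0.66 for ureteric tips (0 of 6 passed, 4 at an unadjusted p under 0.05, Ret at 1.25 and Wnt11 at -0.21) and 0.34 and 0.13 for endothelium (0 of 9 passed, 3 at an unadjusted p under 0.05, Egfl7 at 0.38). They were 0.08 and -0.03 for urothelium (Upk3a fallen among 12, Upk2 at 0.84), 0.04 and 0.13 for podocytes (0 of 4 passed, 0 at an unadjusted p under 0.05, Podxl at 0.11 and Synpo at -0.06), -0.28 and -0.37 for erythroid genes (0 of 9 passed, 5 at an unadjusted p under 0.05, Hbb-bh1 highest at 0.05) and -0.12 and -0.15 for adrenal and gonad (Akr1b7 risen and Lhx9 fallen among 8). Lhx9 was well above background in Tbx2-GOF on only 1 array, so it was kept through the control channel. The part of these tissues in the values of the 10 transcription factors was not tested.

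**Figure D5:**
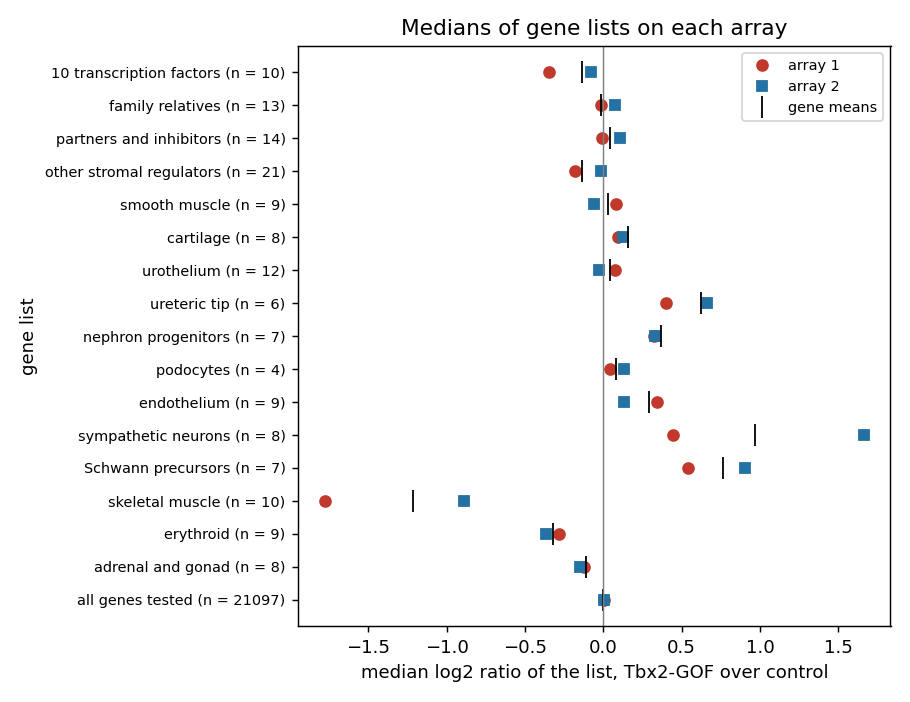
Median log2 ratio of Tbx2-GOF over control (x axis) of each gene list (y axis, with the number of genes tested) on array 1 (circles) and array 2 (squares), with the median of the gene means as ticks. The 10 transcription factors are at -0.34 and -0.08, skeletal muscle at -1.78 and -0.89 and sympathetic neurons at 0.45 and 1.66.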

How the data were processed

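RNA of Tbx2-GOF and control ureters was measured on 2 dye-swapped arrays. The submitters' processing notes name Agilent Feature Extraction 10.7.3.1 as the software behind the scanner files. The deposited mean spot and median background signals are intensity values without normalization, per the file headers; processed signals are intensity values background-subtracted and dye-normalized by the software. Per the file headers, the software's deposited log ratio is a log10 value, red divided by green. The deposited series table holds a score, a signed linear fold ratio; its scale and direction were worked out from the values, as 99.2% and 98.8% of probes detected in both channels matched the software's ratio, turned by dye, within 0.01 on the log10 scale. Its column medians were 1 and 1, and the origin of its values of exactly 1 and any centring stay unknown.

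Here, limma 3.58.1 in R 4.3.3 was applied: normexp with offset 50, loess within arrays (span 0.3, control and outlier-flagged spots at weight 0), ratios turned by the labelled dyes, spots of a probe averaged. Kept were 26471 of 39429 probes, those where 1 genotype was well above background on both arrays; the brightest kept probe stood for a gene. RefSeq accessions gave current symbols to 67.0% of probes, and the others kept the files' names. lmFit and eBayes tested 21097 genes, two-sided, with Benjamini-Hochberg adjustment at 0.05; probes were fitted the same way over all kept probes. Channel signals come from Aquantile normalization between arrays, which keeps the ratios. The number of arrays limits the precision. Both arrays lay on 1 slide and shared 1 scan, per the file headers.

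The genes, lists and tests were chosen with earlier results of these data known. Named beside the 10 genes are those of each list past the test and its highest and lowest gene, and Tbx2 and Tbx18, named for the design; some genes that this rule names are not reported here.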

Additional observations from a re-analysis of the deposited data

How the results depend on the processing

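None of the 10 transcription factors passed limma's test in any of the 12 settings. The count of all genes called was 135; it was 0 under each of median centring, the authors' value table and the software's own signals (limma, with 1219, 2060 and 2055 genes at an unadjusted p under 0.05). It moved to 4 with the separate-channel model, and to 313 with scaling between arrays, 276 with no filter on dim probes and 211 with the mean of a gene's probes; the cause was not tested. The median of the 10 genes as reported was -0.34 on array 1 alone and -0.077 on array 2 alone. The gap between these medians was smaller with median centring and with the software's own signals. Tshz2 turned to 0.034 with the mean of its probes and to 0.090 by its dimmer probe, both within its SD of 0.29. In the settings that use both arrays, 110 other values of the 10 genes kept their sign and their side of the threshold; among the other named genes, 62 values of called genes lost the call, 11 values of others gained it and 0 changed sign. All 13 called genes named lost the call with the software's own signals, with median centring and with the authors' value table. On 1 array alone the sign differed from that of the mean in 4 of the 10 genes (Sox9, Tshz2, Tcf21 and Gata2) and in 3 other named genes (Msc, Actg2 and Synpo). Lhx9 had no value with the filter on both channels, and with the mean of its probes it was at -0.69 (limma adjusted p = 0.0588). The reported fit is already paired, since it tests the log ratios of both genotypes within each array. No paired analysis was possible beyond it, because a further block by replicate number would leave no residual degree of freedom. Leaving out 1 array leaves no residual degree of freedom, so those are values with no test.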
